A study of Mus musculus with 19 samples.

Results

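MicroRNAs (miRNAs) of the imprinted Dlk1-Dio3 locus were followed in mouse liver after oral exposure to dibenz[a,h]anthracene (DB[a,h]A), a polycyclic aromatic hydrocarbon whose metabolites bind DNA. The members were 41 miRNA names of the locus, matched exactly to the names carried by the array. The array held 40 of them, read by 96 probes, among 696 miRNAs in all. No probe carried the bare name mmu-miR-539. Each of the 19 arrays was hybridised with liver RNA of a male MutaMouse animal (strain 40.6, a transgenic line with a mutation reporter gene), 10 weeks old when dosed. All animals were gavaged daily for 28 days with olive oil, alone in the control group (n = 5) or with DB[a,h]A at 6.25 (low, n = 5), 12.5 (middle, n = 4) or 25 mg/kg/day (high, n = 5), and livers were collected 3 days after dosing ended. Per the labels each dose group held 5 animals, and 4 arrays of the middle dose were analysed here. Replicates carry the sample numbers of the labels, which only name a sample.

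In the mouse, most miRNAs of this locus are cut from long noncoding transcripts (Meg3, Rian and Mirg) made from the maternally inherited chromosome, while the protein-coding genes Dlk1, Rtl1 and Dio3 are expressed from the paternal one. A first set of the miRNAs lies antisense to Rtl1, and a larger set, called the miR-379/miR-410 cluster, lies towards the distal end of the locus. The miRNAs are known as abundant in the embryo, the placenta and the brain and as sparse in most adult tissues, the liver included. A mature miRNA recognises its target RNAs mainly through its seed, bases 2 to 8 from the 5′ end. The question put to these miRNAs was which of them adult liver held above background, and whether their levels differed between the dose groups.

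Of the 40 members, 5 were detected on at least 1 array (12.5%), where 243 of all 696 miRNAs on the array (34.9%) were. Detection is the scanner software's own call for the miRNA over its probes. The detected members were mmu-miR-668 and mmu-miR-409-3p, each on 19 of 19 arrays, mmu-miR-494 on 13, mmu-miR-667 on 8 and mmu-miR-376c on 7. The other 35 were detected on none. None of the 40 members was detected on 1 to 3 arrays.

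RefSeq sequences (mouse build GRCm38.p6) were matched to 37 of the 40 members, 11 by the exact name and 26 by the arm that a bare array name stood for in older miRBase naming, since such a name does not state the arm. No sequence is printed for mmu-miR-376c, mmu-miR-485 and mmu-miR-487b. The 37 sequences held 37 distinct seeds, so no seed was shared between a detected and a silent member. The first 4 sequences below are detected members, which the dose comparisons turn on, and capitals mark the seed.
mmu-miR-668 (as miR-668-3p, chr12:109734774-109734797, + strand): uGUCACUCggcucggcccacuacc
mmu-miR-409-3p (chr12:109743204-109743225, + strand): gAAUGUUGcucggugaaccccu
mmu-miR-494 (as miR-494-3p, chr12:109715367-109715388, + strand): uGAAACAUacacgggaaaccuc
mmu-miR-667 (as miR-667-3p, chr12:109720061-109720083, + strand): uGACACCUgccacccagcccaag

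The next sequences are silent members. The first is the other arm of the hairpin that gives miR-409-3p, followed by miR-127 from the set antisense to Rtl1, by miR-379 and miR-410, after which the distal cluster is named, and by miR-370 and miR-665, the silent members richest in G and C. Capitals again mark the seed.
mmu-miR-409-5p (chr12:109743172-109743194, + strand): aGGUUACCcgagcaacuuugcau
mmu-miR-127 (as miR-127-3p, chr12:109592888-109592909, + strand): uCGGAUCCgucugagcuuggcu
mmu-miR-379 (as miR-379-5p, chr12:109709065-109709085, + strand): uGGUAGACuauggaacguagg
mmu-miR-410 (as miR-410-3p, chr12:109743764-109743784, + strand): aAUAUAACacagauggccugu
mmu-miR-370 (as miR-370-3p, chr12:109618305-109618326, + strand): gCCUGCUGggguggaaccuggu
mmu-miR-665 (as miR-665-3p, chr12:109586368-109586387, + strand): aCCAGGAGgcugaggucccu

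The 37 members came from 32 distinct hairpins, since some gave both arms, and these spanned 164 kb of chromosome 12, from 109580233 to 109743795. Of the members, 11 lay upstream of miR-379 and 26 from miR-379 on, with a gap of 90.7 kb before miR-379. All 11 upstream members were silent. With only 4 of the 37 detected in all, no pattern by position is read from this. These 4 detected members lay among the 26. Their hairpins started 135 kb (miR-494), 140 kb (miR-667), 154 kb (miR-668) and 163 kb (miR-409-3p) from the first one. In the RefSeq gene models of that build, 8 of the 37 members had their hairpin within Mirg, among them miR-409-3p, 10 within the span of Rtl1 and 1 within Rian. The hairpins of the remaining 18 members, 3 of them detected, lay in none of the spans of Meg3, Rtl1, Rian and Mirg, and the miR-668 hairpin ended 183 bases before the start of Mirg.

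The GC content of the mature sequence was 66.7% for miR-668, 65.2% for miR-667, 54.5% for miR-409-3p and 45.5% for miR-494. The 33 silent members with a sequence ranged from 23.8 to 68.2% with a median of 45.5%, and 2 of them exceeded 60%. These were miR-370 at 68.2% and miR-665 at 65.0%. The 2 arms of 1 hairpin also differed in detection, since miR-409-3p was detected on all arrays and miR-409-5p on none.

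**Figure D1:**
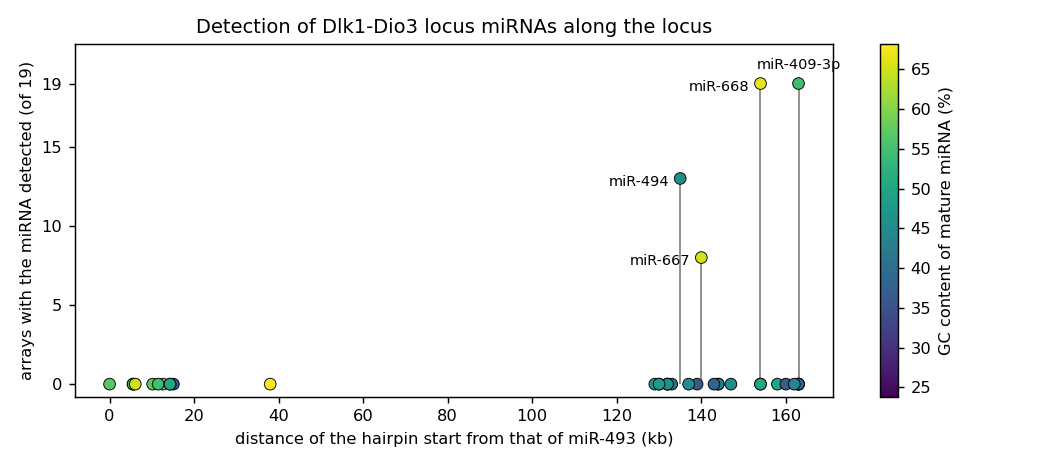
Number of arrays (of 19) on which each of the 37 members with a RefSeq sequence was detected, against the distance in kb of its hairpin start from that of miR-493, with colour giving the GC content of the mature miRNA in percent. The 4 detected members stand between 135 and 163 kb, and all 11 members before the gap of 90.7 kb lie at 0.

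The silent members were mmu-miR-127, miR-134, miR-136, miR-154, miR-299, miR-300, miR-323-3p, miR-329, miR-337-3p, miR-337-5p, miR-369-3p, miR-369-5p, miR-370, miR-376a, miR-376b, miR-377, miR-379, miR-380-3p, miR-380-5p, miR-381, miR-382, miR-409-5p, miR-410, miR-411, miR-431, miR-433, miR-434-3p, miR-434-5p, miR-485, miR-487b, miR-493, miR-495, miR-541, miR-543 and miR-665. They include miR-134, known from neuronal dendrites, and miR-127, which pairs fully with the Rtl1 transcript. The scanner software flags single spots as well above background, and a probe counted as such where a share above 0.5 of its spots was flagged. On no array did any probe of the silent members reach this. The highest share was 10% of spots, for miR-329, miR-380-3p and miR-541. The signal of their brightest probes, in background-subtracted intensity units, ranged from -2.74 to 7.45. Over the 35 silent members, the median of the median signals was 0.212 and the median of the highest signals was 1.46. The weakest probe that was well above background had a signal of 6.78 to 12.6 depending on the array (median 8.48).

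Single silent members showed the same. The signal of miR-127 lay between -0.504 and 2.90 over the 19 arrays with a median of 1.38, that of miR-379 between -0.621 and 3.77, that of miR-410 between -1.50 and 0.337 and that of miR-370 between -1.52 and 0.876. The miR-409-5p signal lay between -0.641 and 1.43. The highest signal of any silent member, 7.45, belonged to miR-136, whose median was 2.02. For comparison, the negative control spots of an array averaged 0.442 ± 0.492 (SD over 19 arrays), with an SD among them of 1.47 to 2.38. These values say that the members were not detectable on this array at 100 ng of RNA, not that they are absent from liver.

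A wider list of miRNAs from the same locus, opposite arms and further hairpins, was also mostly silent. It named 35 miRNAs, of which 29 were on the array and 1 was detected. This one, mmu-miR-299*, was detected on all 19 arrays with signals of 8.30 ± 0.423 in controls (± SD, 5 arrays) and 8.02 ± 0.648, 7.92 ± 0.952 and 7.23 ± 0.657 (± SD; 5, 4 and 5 arrays) from the low to the high dose. Its probe was well above background on 2 arrays. Once scaled to each array, its level was at the floor of the scale on 13 of 19 arrays. Its log2 differences from control were then -0.05, 0.11 and 0.06 (limma adjusted p = 0.937, 0.355 and 0.658). Array signal was lower at the upper doses too, and its part was not tested.

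Markers of the labelled tissue were present. All 7 hepatocyte miRNAs listed were detected, and their summed scaled level was 119 to 161 in controls and 111 to 170 at the high dose. The 4 neuron miRNAs listed, a cell type in which the locus is highly expressed, were at the floor of the scale in every array, with 1 of 4 ever detected. Muscle, stellate, endothelial, leukocyte, erythroid and bile duct miRNAs were detected for 4 of 4, 4 of 5, 2 of 2, 3 of 5, 2 of 2 and 5 of 5 listed miRNAs on the array. In bulk liver, fewer cells of a type and less RNA per cell cannot be told apart.

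The dose comparisons rest on levels scaled to each array, and the arrays differed in overall signal. The 75th percentile of the signal over probes detected on all arrays was 357 ± 111 (SD, n = 5) without DB[a,h]A, 301 ± 74.6 (SD, n = 5) with the low dose, 216 ± 60.7 (SD, n = 4) with the middle dose and 195 ± 37.4 (SD, n = 5) with the high dose. The number of miRNAs detected per array was lower too, with a mean of 200.6 for controls and 169.8 for high dose livers. Position on the slide also followed dose, since 4 of 5 control arrays lay in row 1 and all 5 high dose arrays in row 2. The members detected per array numbered 4.20 ± 0.447 in controls (± SD, 5 arrays) and 3.80 ± 1.10, 2.75 ± 0.50 and 3.00 ± 1.22 (± SD; 5, 4 and 5 arrays) in the low, middle and high dose groups.

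The lower counts came mainly from miR-494 and miR-667. MiR-494 was detected on 5 of 5 control, 4 of 5 low, 2 of 4 middle and 2 of 5 high dose arrays, and miR-667 on 5 of 5, 2 of 5, 0 of 4 and 1 of 5. MiR-376c was detected on 1 of 5, 3 of 5, 1 of 4 and 2 of 5. Array signal moved with these counts, and its part in them was not tested.

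The signal of mmu-miR-668, the only member well above background on every array, overlapped between all groups before scaling. In controls 1, 10, 17, 19 and 22 it was 23.0, 18.6, 18.9, 22.6 and 22.0, and in low dose animals 3, 11, 12, 18 and 24 it was 18.7, 21.9, 24.4, 24.1 and 19.7. In middle dose animals 5, 6, 14 and 20 it was 19.0, 21.6, 20.7 and 23.2, and in high dose animals 7, 8, 15, 16 and 23 it was 22.8, 20.1, 19.7, 22.9 and 19.0. The groups overlapped over nearly their whole range, with means of 21.0 ± 2.14, 21.8 ± 2.56, 21.1 ± 1.76 and 20.9 ± 1.83 (± SD; group sizes 5, 5, 4 and 5). All of its 4 probes were well above background on all 19 arrays. On the arrays with the highest and lowest 75th percentile, control 22 (491) and high dose animal 16 (139), its signal was 22.0 and 22.9. The signal of miR-122 on these arrays was 41755 and 17604. Why miR-668 stayed level was not tested.

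Relative to the array, the level of miR-668 was higher at the upper doses. Its scaled log2 level, the log2 signal relative to the array's 75th percentile, was -3.25, -4.21, -4.55, -3.67 and -4.48 in the same 5 controls. Low dose livers had -3.56, -4.09, -3.78, -3.89 and -3.50, middle dose livers -3.21, -3.02, -3.31 and -3.71, and high dose livers -3.26, -3.49, -3.15, -2.60 and -3.52. Controls 1 and 19 lay within the range of the middle and high dose arrays, and the other 3 controls lay below it. Group means were -4.03 ± 0.56, -3.76 ± 0.24, -3.31 ± 0.29 and -3.20 ± 0.37 (± SD; group sizes 5, 5, 4 and 5).

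The difference of miR-668 from control on the scaled log2 scale was 0.23, 0.59 (SE 0.26) and 0.71 (SE 0.25, 95% interval 0.18 to 1.24) from the low to the high dose. None passed limma's moderated test with Benjamini-Hochberg adjustment over all 208 tested miRNAs, with adjusted p of 0.856, 0.173 and 0.101. The high dose value ranked 6 among the 208, counted from the highest value down. The slope over dose was 0.0282 log2 units per mg/kg/day (SE 0.00914, limma adjusted p = 0.0846), and the mean of the 3 doses stood 0.51 above control (limma adjusted p = 0.122). Without scaling, the high dose difference was 0.00 (95% interval -0.21 to 0.22), and with the array's signal as a covariate it was 0.04 (95% interval -0.25 to 0.33).

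Within slides the difference of miR-668 was uneven. On slide 1 the 2 high dose arrays stood at -0.12 log2 against its 1 control, on slide 2 the 2 high dose arrays at 1.34 against 1 control, and on slide 3 the 1 high dose array at 0.71 against 3 controls. The direction on slide 1 thus ran against the other slides. With row added to slide as a block the high dose difference was 0.62 (95% interval -0.09 to 1.33, limma adjusted p = 0.528). Without control 1, whose level was the highest of the controls, limma gave 0.93 at the high dose (adjusted p = 0.0327) and 0.83 at the middle dose (adjusted p = 0.0472). Control 1 was the only control on slide 1, so that slide then held none. Without control 10, the only control on slide 2, limma gave 0.59 (adjusted p = 0.254) and 0.49 (adjusted p = 0.365) at these doses.

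The signal of mmu-miR-409-3p, a miRNA of the distal cluster that others have studied in tumour cells, likewise overlapped between the groups before scaling. In the controls, in the order above, it was 9.79, 9.13, 9.58, 9.54 and 10.3, and in low dose livers it was 7.83, 9.48, 10.8, 10.8 and 9.28. Middle dose livers had 9.32, 9.82, 9.81 and 11.1 and high dose livers 10.8, 9.32, 8.89, 11.1 and 8.95. No group stood apart, with means of 9.66 ± 0.428, 9.65 ± 1.25, 10.0 ± 0.761 and 9.80 ± 1.04 (± SD; group sizes 5, 5, 4 and 5). The probe was well above background on 12 of 19 arrays, of which 3 were controls, 4 low, 2 middle and 3 high dose arrays.

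After scaling, 8 arrays of miR-409-3p were at the floor of -4.79, which is the lowest level the scale reports. These were all controls but control 1 (-4.49) and all low dose arrays but animal 24 (-4.58). The middle dose arrays stood at -4.24, -4.16, -4.39 and -4.77 and the high dose arrays at -4.34, -4.60, -4.30, -3.65 and -4.61, all above the floor. The floor is relative to the overall signal of each array, so a brighter array reaches it at a higher miRNA signal. Controls at the floor had miR-409-3p signals of 9.13 to 10.3, and the high dose arrays above it had 8.89 to 11.1. Being at the floor thus does not by itself show less miR-409-3p in controls. Differences from control were -0.06, 0.28 and 0.36 (SE 0.16, 95% interval 0.01 to 0.70) from the low to the high dose, with limma adjusted p of 1.00, 0.307 and 0.186. The slope was 0.0165 log2 units per mg/kg/day (limma adjusted p = 0.124), and without scaling the high dose difference was 0.04.

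**Figure D2:**
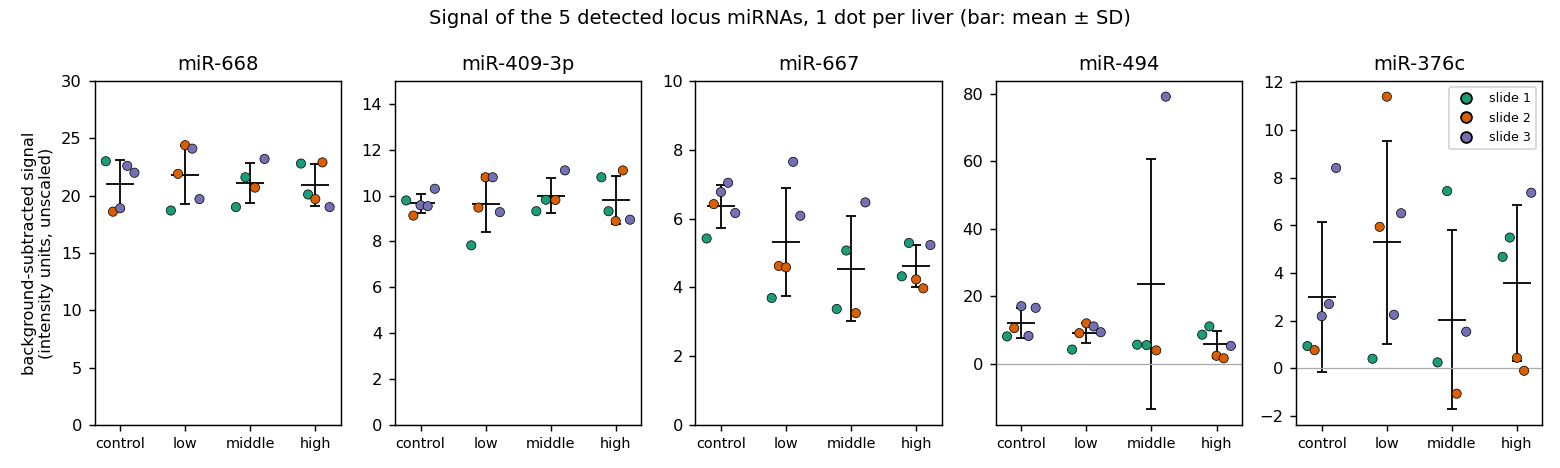
Background-subtracted signal in intensity units, before any scaling, of the 5 detected members in each liver by dose group, with colour for the slide and bars for the mean ± SD (n = 5, 5, 4 and 5); each panel has its own axis. MiR-668 and miR-409-3p overlap in all groups, and 1 middle dose liver stands at 79.1 for miR-494. The brightest probe of miR-667, shown here, lies lower at the high dose than in every control.

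**Figure D3:**
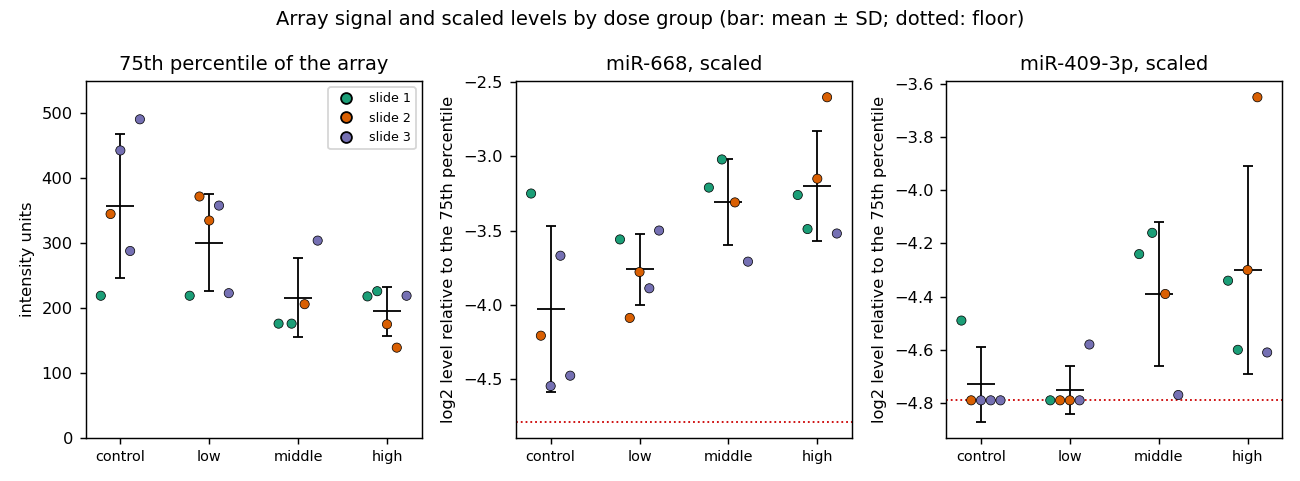
The 75th percentile of each array in intensity units (left) and the scaled log2 levels of miR-668 and miR-409-3p by dose group, with colour for the slide, bars for the mean ± SD (n = 5, 5, 4 and 5) and a dotted line for the floor of -4.79. The percentile has a mean of 357 in controls and 195 in high dose livers, and the scaled level of miR-668 has means of -4.03 and -3.20 there.

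MiR-494, a member of the distal cluster, was set apart by 1 animal. Its signal was 8.14, 10.6, 17.1, 8.27 and 16.6 in the controls and 4.25, 9.11, 12.0, 11.1 and 9.38 in low dose livers. Middle dose livers had 5.69, 5.56, 4.00 and 79.1 and high dose livers 8.65, 11.1, 2.41, 1.67 and 5.33. The value of 79.1, in middle dose animal 20, was 4.62 times the next highest of all 19 arrays. Its second probe gave 31.1 on the same array and at most 6.64 on any other, so both probes were highest there. Without that animal the middle dose mean was 5.08 ± 0.939 (SD, n = 3), against 12.2 ± 4.42 (SD, n = 5) for controls and 5.84 ± 4.04 (SD, n = 5) for high dose livers.

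On the scaled log2 scale, 13 of 19 arrays of miR-494 were at the floor and its probe was well above background on 10. The middle dose difference was 0.88 (SE 0.43, 95% interval -0.04 to 1.80, limma adjusted p = 0.211), and it was -0.05 without animal 20. With animal 20 it ranked 2 of the 208, counted from the highest value down. At the low and high doses it was 0.12 and 0.31, and 0.03 and 0.09 without animal 20, which enters these values through the slide block. At the high dose the scanner software's total signal per miRNA gave -0.56 (95% interval -2.16 to 1.05). None of these passed the test.

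MiR-667 was dim on every array. Its signal was 5.42, 6.42, 6.77, 7.04 and 6.16 in the controls and 3.69, 4.62, 4.58, 7.65 and 6.08 in low dose livers. Middle dose livers had 3.37, 5.07, 3.25 and 6.47 and high dose livers 4.32, 5.29, 4.23, 3.97 and 5.23. On this brightest probe all 5 high dose values lay below all 5 controls, with means of 4.61 ± 0.610 (SD, n = 5) against 6.36 ± 0.623 (SD, n = 5). The other probes differed by less than the SD of their controls. Their high dose means were 3.94 ± 0.683, 3.11 ± 0.775 and 0.37 ± 1.14 against 4.57 ± 0.872, 3.48 ± 1.11 and 1.04 ± 1.27 in controls (± SD, n = 5 each). The brightest probe of miR-667 was never well above background by the share of flagged spots, which reached 40% in control 19. It was at the floor on all 19 arrays once scaled, so the fitted differences were 0.00 at each dose. On the scaled total signal per miRNA that the scanner software gives, the differences were -0.20, -0.39 and -0.36 from the low to the high dose (limma adjusted p = 0.975, 0.256 and 0.28), which did not pass the test. Array signal was lower at the high dose too, and its part was not tested.

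MiR-376c, of a family known for RNA editing in its precursors, had its signal above 5 on only some arrays of each group. It was 0.938, 0.767, 2.19, 2.70 and 8.41 in the controls and 0.406, 5.94, 11.4, 2.25 and 6.51 in low dose livers. Middle dose livers had 0.253, 7.44, -1.06 and 1.54 and high dose livers 4.68, 5.49, 0.442, -0.0987 and 7.37. The probe was well above background on 1 array, that of low dose animal 12. The groups overlapped, the differences on the scaled scale were 0.00, 0.05 and -0.01 with 18 of 19 arrays at the floor, and no fold is given. Its relatives mmu-miR-376a and mmu-miR-376b were silent, with highest signals of 1.46 and 1.97.

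Across the 5 tested members, none was called in any of the 6 tests. MiR-667 was at the floor on all 19 arrays and miR-376c on 18, so the floor largely set their differences. Both still enter the counts and medians of the members below. Over all 208 tested miRNAs, 4.33%, 5.77% and 2.4% were called higher from the low to the high dose, and 0.0% lower at each. The F test over the 4 groups called 0.962%, the slope over dose 0.962% higher and 0.0% lower, and the mean of the 3 doses 8.17% higher and 0.0% lower. With shares this small, a count of 0 among 5 members is near the background. At an unadjusted limma p under 0.05, 0 of 5 members were higher at the low dose and 1 (miR-668) at the middle dose. At the high dose 2 were higher (miR-668 and miR-409-3p), and no member was lower at any dose. Of all 208 tested miRNAs, 28, 45 and 41 were higher from the low to the high dose, and 0, 7 and 12 lower. The median difference of the members was 0.00, 0.28 and 0.31 at the 3 doses, beside 0.07, 0.11 and 0.05 over all tested miRNAs. For the upper 2 doses, the members' median became 0.02 and 0.00 without scaling, beside -0.25 and -0.49 over all tested miRNAs. Without middle dose animal 20 the members' median was 0.07 and 0.09, beside 0.11 and 0.05 over all tested miRNAs. Over the 17 other ways of processing the members' median ran from 0.00 to 0.71 and from 0.00 to 0.53.

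A call for the members depended on how arrays were brought to a common level. When arrays were scaled by the labelling spike-ins, control RNAs added at the labelling step, both miR-668 (0.77, limma adjusted p = 0.000847) and miR-409-3p (0.68, limma adjusted p = 0.00022) were called higher at the high dose. That scaling called 11.1% of all tested miRNAs higher there, with a median of 0.15. The log2 spike-in signal itself differed by dose, with 12.4 ± 0.241 (SD, n = 5) in controls and 11.5 ± 0.175 (SD, n = 5) in high dose livers. Over 17 other ways of processing, the high dose difference of miR-668 ran from 0.00 to 0.83 and that of miR-409-3p from 0.00 to 0.68, with 2 and 1 of them called.

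**Figure D4:**
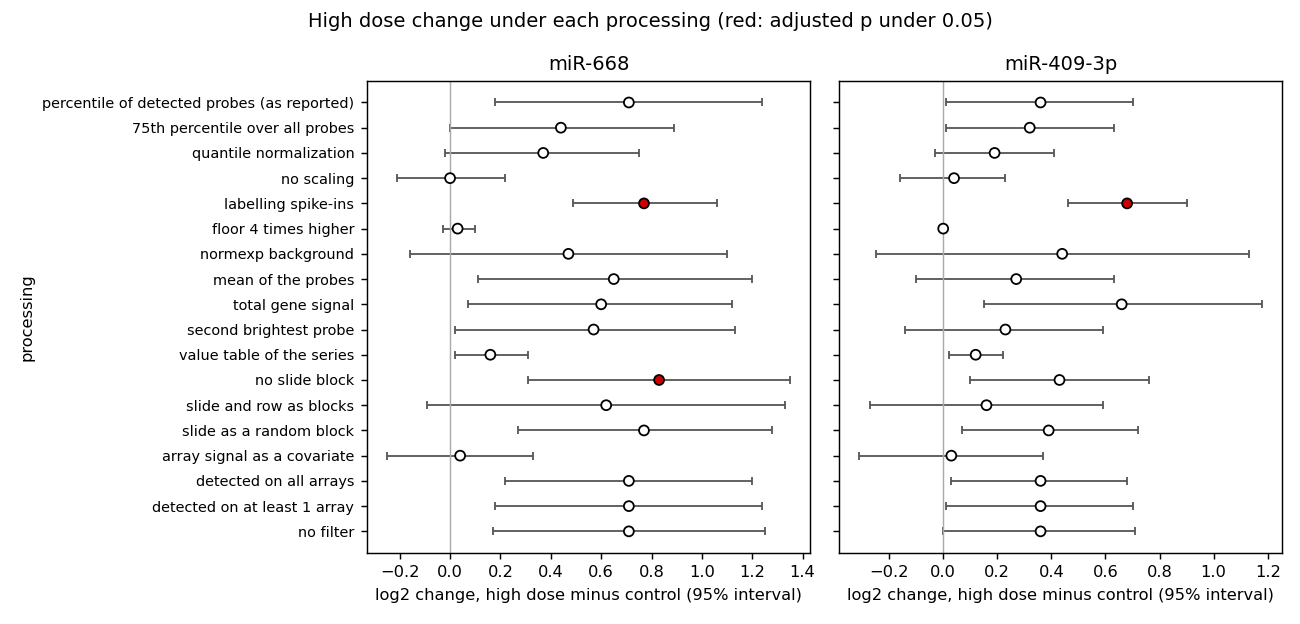
Log2 difference between the high dose and control groups, with its 95% interval, for miR-668 (left) and miR-409-3p (right) as reported and under each of 17 other ways of processing the 19 arrays; red marks an adjusted p under 0.05. Without scaling miR-668 lies at 0.00, with the labelling spike-ins at 0.77 and with no slide block at 0.83.

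As a reference for the exposure, mmu-miR-34a, a transcriptional target of p53, differed from control by 1.52, 3.11 and 3.49 from the low to the high dose, with limma adjusted p of 0.0165, 3.59e-05 and 4.88e-06. The hepatocyte miRNA mmu-miR-122 differed by 0.10, 0.15 and 0.11 (limma adjusted p = 0.89, 0.47 and 0.658). Over all 7 listed hepatocyte miRNAs the median difference was 0.01, -0.07 and -0.15. Of these 7, 0, 2 and 3 were lower at an unadjusted limma p under 0.05, 0 were higher at any dose, and none was called. The largest difference of a detected locus member, 0.88 for miR-494 at the middle dose, was thus smaller than any of the 3 of miR-34a, and rested on 1 animal.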

How the data were processed

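Liver RNA of 19 mice was measured on one-colour Agilent miRNA arrays, 100 ng per array labelled with Cyanine 3-pCp, per the labels. Per the file headers, Agilent Feature Extraction 10.7.3.1 gave a background-subtracted signal intensity per spot, which can be negative, with flags for outlier, well-above-background and detected. These files hold no scaling between arrays. The authors also deposited a value table of 692 miRNAs in log2 units, used as an alternative with 636 names matched. The sources used here do not give how it was made.

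Control spots and outlier spots were left out and the spots of each of 1937 probes averaged. Signals were scaled to the array's 75th percentile, taken from the 220 probes found on every array, and lower values were set to a floor of -4.79 (log2), where levels have no order. The brightest probe stood for a miRNA. The 208 miRNAs detected on at least 4 arrays were fitted by lmFit and eBayes of limma 3.58.1 (R 4.3.3) with slide as a fixed block, in 6 two-sided tests (the F test aside), each with Benjamini-Hochberg adjustment over all 208 and a threshold of 0.05. The tests were each dose against control, any difference among the groups, a slope over dose, and the mean of the doses. The procedure was tested on simulated data with normal noise and slide effects. These had no floor and no array signal or row that followed dose, so that test does not cover those features. All arrays lay on 3 slides that each held every group. The number of arrays limits the precision, and p-values measure the spread between these animals.

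The members, marker lists and tests were chosen with earlier results of these data known. Every member is named. Of other miRNAs, the tested ones of the locus, miR-34a and miR-122 are named with values, and any further miRNA named was chosen after its values were seen. Over the lists of other cell types, none of the tested hepatocyte, stellate, erythroid, bile duct or striated muscle miRNAs was called at any dose. Of 2 endothelial miRNAs 1 was called higher at the low dose, and of 3 tested leukocyte miRNAs 1 was called higher at each dose. No neuron miRNA was tested. Alternatives changed the scaling, background, floor, block, filter, probe summary, source of the values and the arrays used. The normexp background alternative used the median spot signal, because the files used here hold no mean signal.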

Additional observations from a re-analysis of the deposited data

Results flagged for a closer look

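In groups of 4 or 5 arrays, the highest or lowest array was marked where its gap to the nearest other exceeded the 95% critical value of Dixon's test. Over the 5 detected members and miR-299*, 48 groups of values were examined and 8 were marked. The usual chance rate of about 1 in 20 does not hold for these groups. A group wholly at the floor cannot be marked, and a group with 1 array above the floor always is. MiR-494 in middle dose animal 20 was marked on both scales, with a signal of 79.1 where the other 3 middle dose animals had 4.00 to 5.69, and a scaled log2 level of -1.94 where the others were at the floor of -4.79. The miR-376c signal of control 22 was 8.41, and the other controls had 0.767 to 2.70.

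The other 5 were single arrays above a group whose other arrays were all at the floor of -4.79, so their spread is set by that floor. They were miR-376c in middle dose animal 6 (-4.56), miR-409-3p in control 1 (-4.49) and in low dose animal 24 (-4.58), miR-494 in low dose animal 24 (-4.57) and miR-299* in control 1 (-4.68).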

How the results depend on the processing

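No member was called lower, and none was called at the low dose, under any alternative. Scaling by the labelling spike-ins called 2 members (miR-668 and miR-409-3p) at the high dose, in the F test, in the slope over dose and in the mean of the doses. Without the slide block 1 member, miR-668, was called at the high dose (adjusted p = 0.0447 by limma) and in the slope (0.0375), and testing only miRNAs detected on all arrays called 1 in the slope (0.0466). Leaving out each array in turn gave 0 to 1 members called at the middle dose, at the high dose and in the mean of the doses, where the 1 call of miR-668 came without control 1. It gave 0 to 1 in the slope, where the call came without high dose animal 8, and 0 to 0 at the low dose and in the F test.

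The high dose difference of miR-668 stayed within 0.55 to 0.93 and that of miR-409-3p within 0.20 to 0.44 when single arrays were left out. With a floor 4 times higher these differences were 0.03 and 0.00, since more arrays then sit at the floor. The median of all tested miRNAs at the high dose was -0.49 without scaling and 0.32 with the normexp background, so differences under those settings are to be read against it. Requiring a probe well above background in place of the detection call left 4 detected members, without miR-667. MiR-494, miR-667 and miR-376c could not be tested where detection on all arrays was required. The cause of these dependences was not tested. No paired analysis was possible because the groups compared share no replicate numbers. Signals near background limit all members, miR-668 the least. The miR-668 signal was dim too, at 18.6 to 24.4 on arrays whose 75th percentile ran from 139 to 491.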

Other observations

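Levels that stood more than 1 log2 unit above every other array were counted over all 696 miRNAs and 19 arrays, after the miR-494 value of middle dose animal 20 had been seen. There were 6 such pairs of miRNA and array. On the array of that animal they were miR-494, 2.40 above the next array, and mmu-miR-2140, a probe name of an older miRBase release, 1.42 above it. The others were miR-878-3p in control 1 (2.11), miR-206 in control 22 (1.67), and miR-200c (1.15) and miR-141 (1.12) in high dose animal 8. No other member of the locus was among them.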
